A study of Homo sapiens with 4 samples.

Results

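The genes described here serve glutathione synthesis, the peroxide-removing enzymes, the thioredoxin system and the NRF2 response in B-CPAP cells, an established cell line of papillary thyroid carcinoma. They are 39 genes chosen by name, and a gene was tested where its row reached at least 0.5 FPKM (fragments scaled to gene length and library size) in at least 2 libraries. All but GPX7 did so, which leaves 38 of the 13291 rows tested from a table of 59108. RNA-seq of mRNA libraries compared B-CPAP cells carrying a hairpin against GFP (shGFP, the control, 2 libraries) with B-CPAP cells carrying a hairpin against LDHA (shLDHA, LDHA knockdown, 2 libraries). The methods describe lentiviral vectors for LDHA knockdown and puromycin selection of infected cells. They do not describe how the shGFP cells were made, so whether the control cells share the vector and the selection is not known. The sources do not say whether the libraries of a group came from separate cultures or which LDHA hairpin each carried, so a p-value measures only the spread between these libraries. The comparison asks how the transcriptome of these cells differs when lactate dehydrogenase A is reduced.

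NRF2, the product of NFE2L2, is a transcription factor that KEAP1 holds in the cytosol and hands to the proteasome until oxidants or electrophiles modify KEAP1. NRF2 then pairs with small MAF proteins and binds antioxidant response elements near genes for glutathione synthesis, thioredoxin reductase, quinone reduction and iron storage. Glutathione and thioredoxin are the electron carriers of the cell's peroxidases: glutathione peroxidases draw on the first, most peroxiredoxins on the second, and both carriers are reduced again with NADPH.

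The core of the antioxidant response element, TGACNNNGC, was searched on both strands from 250 bases before to 50 bases after each start site in RefSeq (GRCh38.p14). It stood in the windows of 7 of the 29 members with an entry (24.1%), against 4384 of 27305 genes of the table (16.1%). Counted by promoter, it stood in 8 of 41 member promoters (19.5%) and in 4687 of all 35116 promoters (13.3%). The 6 members whose match lies before the start site are shown, because they include genes that passed the test below and genes that did not. GCLM (chr1:93909431-93909489), AIFM2 (chr10:70132826-70132872) and KEAP1 (chr19:10502772-10502827) lie on the minus strand, and GSTO1 (chr10:104254706-104254764), GSTP1 (chr11:67583721-67583779) and TXNRD1 (chr12:104215655-104215713) on the plus strand. Each stretch is written in the direction of its gene, and capitals mark 1 match per stretch to the core or to its reverse complement.
GCLM: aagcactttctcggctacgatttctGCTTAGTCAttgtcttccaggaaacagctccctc
AIFM2: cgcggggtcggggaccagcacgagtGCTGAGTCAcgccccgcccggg
KEAP1: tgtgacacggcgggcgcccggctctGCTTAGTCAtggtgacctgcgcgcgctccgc
GSTO1: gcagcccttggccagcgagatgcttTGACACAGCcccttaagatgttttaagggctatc
GSTP1: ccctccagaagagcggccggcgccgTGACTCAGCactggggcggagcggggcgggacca
TXNRD1: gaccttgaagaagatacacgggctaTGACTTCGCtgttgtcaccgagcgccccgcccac
The matches begin at positions -34 in GCLM, -22 in AIFM2, -31 in KEAP1, -161 in GSTO1, -66 in GSTP1 and -99 in TXNRD1, counted from the start site. The GSTP1 and AIFM2 matches also hold TGANTCA, the site of AP-1 factors, so the letters do not tell the motifs apart. KEAP1, GSTO1 and TXNRD1 have further matches, and that of KEAP1, at -54, lies within the stretch shown, in lower case. The MGST1 match lies after the start site. A second motif, the CEBP-ATF core TGATGNAAT of amino acid response genes, stood in 1 member promoter (GPX8) and in 0.991% of all promoters. FTH1, GGCT, GSR, GSS, HMOX1, PRDX1, PRDX6, SLC7A11, SOD1 and TXN2 have no entry in the promoter table used. A match describes letters only and was not tested as a binding site.

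LDHA, the knockdown's target, stood at 1049 and 1056 TMM-scaled FPKM in the control libraries and at 184 and 203 in the knockdown libraries, where TMM (trimmed mean of M values) sets the libraries to a common scale. The log2 fold change of LDHA was -2.44 (SE 0.08, limma adjusted p = 0.0076). Scaling matters in this table: the median log2 difference of all tested rows was -0.33 in the deposited FPKM and -0.004 after TMM. Among all tested rows, 18.1% rose and 12.9% fell after TMM scaling (limma, Benjamini-Hochberg adjusted p under 0.05), and 31.0% passed either way. In the deposited FPKM without scaling, 6.80% rose and 23.4% fell. The estimated depth was 18800000 to 25400000 fragments per library. Of the thyroid follicular markers, PAX8, FOXE1 and HHEX were measured, while NKX2-1 and TSHR were listed at 0 and TG and SLC5A5 stayed near 0. The summed level of the thyroid markers was 108 to 111 FPKM in the control libraries and 70.5 to 97.9 FPKM in the knockdown libraries. Over 6 immune markers the sum was 30.4 to 30.8 FPKM in the controls and 35.2 to 47.0 FPKM in the knockdown libraries, almost wholly from CD68 and CD14, with PTPRC, CD3E and MS4A1 at 0. Over 6 fibroblast markers it was 17.1 to 18.1 FPKM in the controls and 9.59 to 9.83 FPKM in the knockdown libraries, from COL1A1 and PDGFRB. The part of these differences in the results below was not tested.

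Among the antioxidant genes, higher RNA in knockdown cells was more frequent than lower RNA after TMM scaling. Of the 38 members tested, 17 rose, 2 fell and 19 did not pass, beside 18.1% of all rows that rose and 12.9% that fell. The genes that rose were GPX1, GPX4, SOD1, PRDX2, PRDX5, PRDX6, TXN, TXN2, TXNRD2, GSTP1, GSTO1, MGST3, NQO1, HMOX1, FTL, OSGIN1 and GSS. The genes that fell were SLC7A11 and GPX3, the pair with the lowest levels among the members tested. The median log2 fold change of the members was 0.46, against -0.004 over all rows. Both knockdown libraries lay above both control libraries for 24 members and below them for 5, where 36.4% of all rows lay above and 36.1% below. In libraries of whole cultures, fewer cells with a transcript and less of it per cell cannot be told apart.

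How many members passed depended on the scale. Without scaling, GPX1 and PRDX5 rose, SLC7A11, GPX3, GCLC and GLRX2 fell, and the median of the members was 0.12 against -0.33 over all rows. In these deposited values 17 members lay above both controls, beside 20.0% of all rows, and 13 lay below them, beside 52.8%. With every library set to an equal total, again only GPX1 and PRDX5 rose and 9 members fell, where 4.57% of all rows rose and 34.0% fell. The members then had a median of -0.06, against -0.50 over all rows. On each of these scales the median of the members lay above that of all rows. Leaving out control library 1 or control library 2 ended every call in the table (0 of 13291 rows called by limma, the members and LDHA included). At an unadjusted p under 0.05, 11 and 14 members were then higher and 0 and 3 lower, and over all rows 2095 and 2241 were higher and 1324 and 1455 lower. At the adjusted threshold, 22 members rose and 3 fell without knockdown library 1, beside 20.5% and 13.5% of all rows, and 21 rose and 1 fell without knockdown library 2, beside 19.0% and 12.4%. With offsets for GC content, 15 members rose and 3 fell, beside 13.8% and 12.9% of all genes with a GC content. Of those 15, 10 had risen without the offsets, FTH1, GLRX, MGST1, PRDX1 and TXNRD1 were gained, and GPX4, GSTP1, HMOX1, OSGIN1, PRDX2, TXN2 and TXNRD2 no longer passed.

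**Figure D1:**
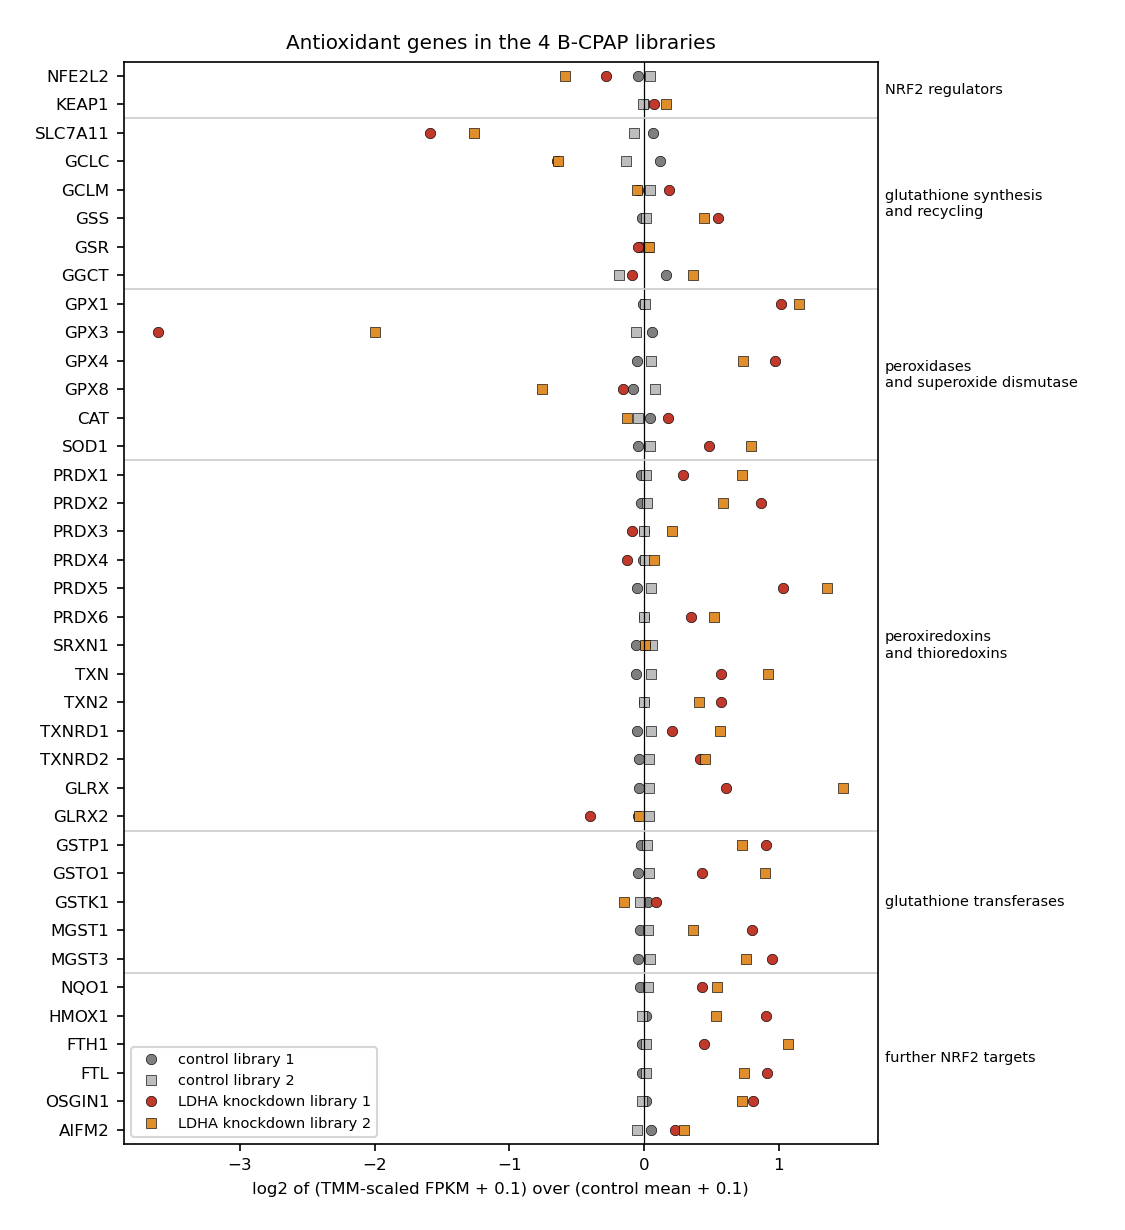
Level of each of the 38 tested antioxidant genes in each of the 4 libraries, as log2 of (TMM-scaled FPKM + 0.1) over (control mean + 0.1). Circles are first and squares second libraries, in grey for control and in red or orange for LDHA knockdown, and genes are grouped by role. The control libraries lie close to 0 throughout, PRDX5 and GPX1 lie to the right in both knockdown libraries, and GPX3 and SLC7A11 lie farthest to the left.

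Neither NRF2 regulator passed the test. NFE2L2, which encodes NRF2 itself, stood at 8.66 and 9.21 TMM-scaled FPKM in the control libraries and at 7.34 and 5.91 in the knockdown libraries. Both knockdown values of NFE2L2 were lower than both control values, with a log2 fold change of -0.43 (SE 0.15, limma adjusted p = 0.091), and it fell where libraries were set to an equal total. KEAP1, the adaptor that marks NRF2 for degradation, stood at 71.2 and 70.7 in the controls and at 74.6 and 79.6 in the knockdown libraries. Its log2 fold change of 0.12 (limma adjusted p = 0.27) had the opposite sign without scaling, at -0.22, with upper quartile scaling, at -0.01, with an equal total, at -0.40, and with GC content offsets, at -0.32, where it fell (limma adjusted p = 0.042). The ratio of NFE2L2 to KEAP1 within a library does not depend on scaling, and it was 0.122 and 0.130 in the controls and 0.0984 and 0.0743 in the knockdown libraries. With GC content offsets NFE2L2 stood at -0.19, above KEAP1, so the direction of this ratio depends on that correction. RNA levels do not show how much NRF2 protein the cells held.

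In glutathione synthesis and recycling, SLC7A11 fell, GSS rose and the other 4 genes did not pass. SLC7A11 is the cystine-importing subunit of the cystine/glutamate exchanger. It stood at 0.972 and 0.874 TMM-scaled FPKM in the controls and at 0.241 and 0.327 in the knockdown libraries, which is about 220, 206, 40 and 64 fragments. The groups did not overlap, and the log2 fold change was -1.42 (SE 0.34, limma adjusted p = 0.041). With transcript length offsets the log2 fold change of SLC7A11 was -1.05 and no longer passed (limma adjusted p = 0.065), nor did it pass without knockdown library 1 or 2 (limma adjusted p = 0.070 and 0.052) or without the filter on low values (limma adjusted p = 0.079). SLC3A2, the heavy chain that carries SLC7A11 to the membrane, had a log2 fold change of 0.10 and did not pass.

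GCLC, the catalytic subunit of glutamate-cysteine ligase, which catalyses the rate-limiting step, stood at 3.38 and 2.82 in the controls and at 1.95 in both knockdown libraries. The groups were apart, but the log2 fold change of -0.64 (SE 0.18) narrowly missed the threshold (limma adjusted p = 0.060), while it passed without scaling, at -0.97. GCLM, the modifier subunit of the same enzyme, overlapped between groups, with 8.45 and 9.02 in the controls and 9.93 and 8.40 in the knockdown libraries. GSS, the synthetase of the next step, rose from 113 and 116 to 168 and 156 TMM-scaled FPKM, with a log2 fold change of 0.50 (SE 0.07, limma adjusted p = 0.016). Against an equal library total the value of GSS was -0.02. GSR, which reduces oxidized glutathione, stood at 29.3 and 30.6 in the controls and at 29.1 and 30.7 in the knockdown libraries. GGCT, a cyclotransferase of glutathione breakdown, ranged from 8.90 to 13.1 with the groups overlapping. The median log2 fold change of the 6 genes was 0.03.

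Among the peroxidases and superoxide dismutase, GPX1, GPX4 and SOD1 rose and GPX3 fell. GPX1, the main cytosolic glutathione peroxidase, stood at 551 and 557 TMM-scaled FPKM in the controls and at 1123 and 1232 in the knockdown libraries. Its knockdown values were more than any control value by a wide margin, and its log2 fold change was 1.09 (SE 0.08, limma adjusted p = 0.0077). GPX1 passed under every setting tried except those without a control library, including without scaling (0.74) and with length offsets (0.57). Rows of GPX1 pseudogenes held 68.3 and 68.4 FPKM in the controls, 11.0% of the GPX1 level, and 119 and 109 FPKM in the knockdown libraries, and another gene annotated on the same strand shares 39.9% of its exonic bases. How reads were divided between these rows is not known, which makes the GPX1 level uncertain.

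GPX4, which reduces lipid hydroperoxides in membranes, rose from 749 and 803 to 1525 and 1294 TMM-scaled FPKM, with a log2 fold change of 0.86 (SE 0.11, limma adjusted p = 0.014). SOD1, the cytosolic copper-zinc superoxide dismutase, rose from 186 and 198 to 268 and 332, with a log2 fold change of 0.64 (SE 0.13, limma adjusted p = 0.028). For both genes the groups were apart also in the deposited values, where the adjusted p did not pass. With length offsets neither passed, at 0.33 for GPX4 and 0.12 for SOD1, and with GC content offsets GPX4 stood at 0.32 and did not pass. GPX3, the secreted plasma peroxidase, stood at 1.17 and 1.07 in the controls and at 0 and 0.206 in the knockdown libraries, or about 37, 36, 0 and 6 fragments. GPX3 fell with a log2 fold change of -2.80 (SE 0.66, limma adjusted p = 0.040) on the log2(FPKM + 0.1) scale, which understates changes of low genes, and it also fell without scaling and with length offsets. It did not pass without the filter on low values (limma adjusted p = 0.079) or without the variance trend (limma adjusted p = 0.052), and its log2 fold change was -2.001 without knockdown library 1 and -3.69 without knockdown library 2.

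GPX8, a peroxidase of the endoplasmic reticulum, was lower in both knockdown libraries, at 13.1 and 8.57 against 13.7 and 15.4, without passing (log2 fold change -0.45, SE 0.23, limma adjusted p = 0.19). GPX7, its relative in the same compartment, was listed at 0 in all 4 libraries, where 3 fragments would read as 0.119 to 0.168 FPKM. CAT, the peroxisomal catalase, overlapped between the groups, with 13.3 and 12.4 in the controls and 14.6 and 11.8 in the knockdown libraries. The 6 genes tested in this group had a median log2 fold change of 0.33.

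The peroxiredoxin and thioredoxin group held 13 genes, of which 6 rose, none fell and 7 did not pass, with a median log2 fold change of 0.44. Over all rows, 18.1% rose and 12.9% fell. With an equal total 1 of the 13 rose and 4 fell, beside 4.57% and 34.0% of all rows. With length offsets 1 rose and 2 fell, beside 15.5% and 13.0% of all genes with a length. PRDX5, the peroxiredoxin of mitochondria, peroxisomes and cytosol, had the largest rise of all members, with a log2 fold change of 1.20 (SE 0.13, limma adjusted p = 0.010). Its values were 207 and 223 TMM-scaled FPKM in the controls and 439 and 551 in the knockdown libraries, and like GPX1 it passed under every setting except those without a control library. PRDX2, a cytosolic peroxiredoxin, rose from 319 and 328 to 591 and 485, with a log2 fold change of 0.73 (SE 0.12, limma adjusted p = 0.019). PRDX6, which works with glutathione rather than thioredoxin, rose from 248 in both controls to 317 and 355, with a log2 fold change of 0.43 (SE 0.09, limma adjusted p = 0.027), and stood at -0.09 against an equal library total.

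PRDX1, the most abundant peroxiredoxin here, stood at 699 and 717 in the controls and at 866 and 1171 in the knockdown libraries. The groups of PRDX1 did not overlap, but the knockdown libraries differed and the log2 fold change of 0.51 (SE 0.16) did not pass (limma adjusted p = 0.078). PRDX3, the mitochondrial peroxiredoxin, overlapped between the groups, with 71.3 and 71.5 against 67.3 and 82.5. PRDX4, the peroxiredoxin of the endoplasmic reticulum, also overlapped, with 169 and 171 against 156 and 179, and with length offsets it fell, at -0.52. SRXN1, the sulfiredoxin that repairs overoxidized peroxiredoxins and an NRF2 target, stood at 32.0 and 34.7 in the controls and at 33.5 in both knockdown libraries. A gene annotated on the same strand shares 90.7% of the exonic bases of SRXN1, so its value depends on how such reads were counted.

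TXN, the cytosolic thioredoxin, rose from 266 and 287 to 411 and 523 TMM-scaled FPKM, with a log2 fold change of 0.75 (SE 0.14, limma adjusted p = 0.025). Its mitochondrial counterpart TXN2 rose from 129 and 128 to 191 and 171, with a log2 fold change of 0.49 (SE 0.09, limma adjusted p = 0.021). TXNRD2, the mitochondrial thioredoxin reductase, rose from 186 and 196 to 255 and 262, with a log2 fold change of 0.44 (SE 0.07, limma adjusted p = 0.019). Neither of these mitochondrial genes held its direction on every scale: against an equal library total TXN2 stood at -0.03 and TXNRD2 at -0.08, and TXNRD2 stood at -0.09 with GC content offsets. TXNRD1, the cytosolic reductase and an NRF2 target, was higher in both knockdown libraries, at 61.8 and 79.2 against 51.6 and 55.5, without passing (log2 fold change 0.39, SE 0.14, limma adjusted p = 0.10).

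GLRX, the cytosolic glutaredoxin that removes glutathione from protein thiols, stood at 13.0 and 13.7 in the controls and at 20.5 and 37.4 in the knockdown libraries. The knockdown libraries of GLRX lay farther apart than those of any other member but GPX3, and the log2 fold change of 1.05 (SE 0.30) did not pass (limma adjusted p = 0.064), although it passed with the replicate block. GLRX2, the mitochondrial glutaredoxin, stood at 13.0 and 13.7 in the controls and at 10.1 and 13.0 in the knockdown libraries. It did not pass after TMM scaling (log2 fold change -0.22), and it fell without scaling, at -0.56, and with length offsets, at -0.78, while with GC content offsets it stood at 0.01.

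Of the 5 glutathione transferases, 3 rose and none fell, beside 18.1% and 12.9% of all rows. GSTP1, the cytosolic pi-class enzyme that conjugates electrophiles to glutathione, rose from 2127 and 2183 to 4042 and 3569 TMM-scaled FPKM. The log2 fold change of GSTP1 was 0.82 (SE 0.10, limma adjusted p = 0.013). MGST3, a membrane-bound transferase with peroxidase activity, rose from 89.9 and 95.5 to 179 and 157, with a log2 fold change of 0.85 (SE 0.10, limma adjusted p = 0.011). GSTO1, the omega-class enzyme with thioltransferase activity, rose from 218 and 231 to 303 and 419, with a log2 fold change of 0.67 (SE 0.17, limma adjusted p = 0.049), close to the threshold. None of these passed without scaling or with length offsets, but the groups of each were apart in the deposited values too. MGST1, the microsomal transferase, stood at 169 and 175 in the controls and at 300 and 222 in the knockdown libraries and narrowly missed the threshold (log2 fold change 0.58, SE 0.16, limma adjusted p = 0.057). GSTK1, the kappa-class enzyme of mitochondria and peroxisomes, overlapped between the groups, with 97.7 and 93.5 against 102 and 86.1.

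The further NRF2 targets had the highest median log2 fold change of the role groups, 0.74. All 6 had knockdown values above both controls, as had 36.4% of all rows, and 4 of them passed, beside 18.1% of all rows that rose. Without scaling and with an equal total, 0 of the 6 passed, beside 6.80% and 4.57% of all rows that rose. The median of the 6 was then 0.40 and 0.22, against -0.33 and -0.50 over all rows. FTL, the ferritin light chain of the iron-storage shell, was the most abundant member, rank 7 of all rows tested in control cells. It rose from 11197 and 11410 to 21266 and 18877 TMM-scaled FPKM, with a log2 fold change of 0.83 (SE 0.13, limma adjusted p = 0.018). FTH1, the heavy chain that oxidizes iron, stood at 2235 and 2292 in the controls and at 3084 and 4736 in the knockdown libraries. The log2 fold change of FTH1, 0.76, was close to that of FTL, but its knockdown libraries differed more (SE 0.23, limma adjusted p = 0.067). BEST1, on the opposite strand, shares 63.2% of the exonic bases of FTH1, and the sources do not say whether reads were counted by strand.

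HMOX1, the haem oxygenase that frees iron from haem, rose from 114 and 112 to 211 and 164, with a log2 fold change of 0.72 (SE 0.14, limma adjusted p = 0.027). NQO1, the quinone reductase most often read as an NRF2 target, rose from 456 and 477 to 630 and 679, with a log2 fold change of 0.49 (SE 0.08, limma adjusted p = 0.019). NQO1 also rose with length offsets, at 0.41, and with GC content offsets, at 0.71, and stood at -0.03 against an equal library total. OSGIN1, an oxidative stress-induced growth inhibitor, rose from 13.7 and 13.4 to 23.8 and 22.5, with a log2 fold change of 0.77 (SE 0.09, limma adjusted p = 0.011), and it too rose with length offsets, at 0.56, but not with GC content offsets, at 0.14 (limma adjusted p = 0.26). AIFM2, the ubiquinone reductase that limits lipid peroxidation alongside GPX4, stood at 29.8 and 27.8 in the controls and at 33.9 and 35.3 in the knockdown libraries (log2 fold change 0.27, limma adjusted p = 0.076).

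**Figure D2:**
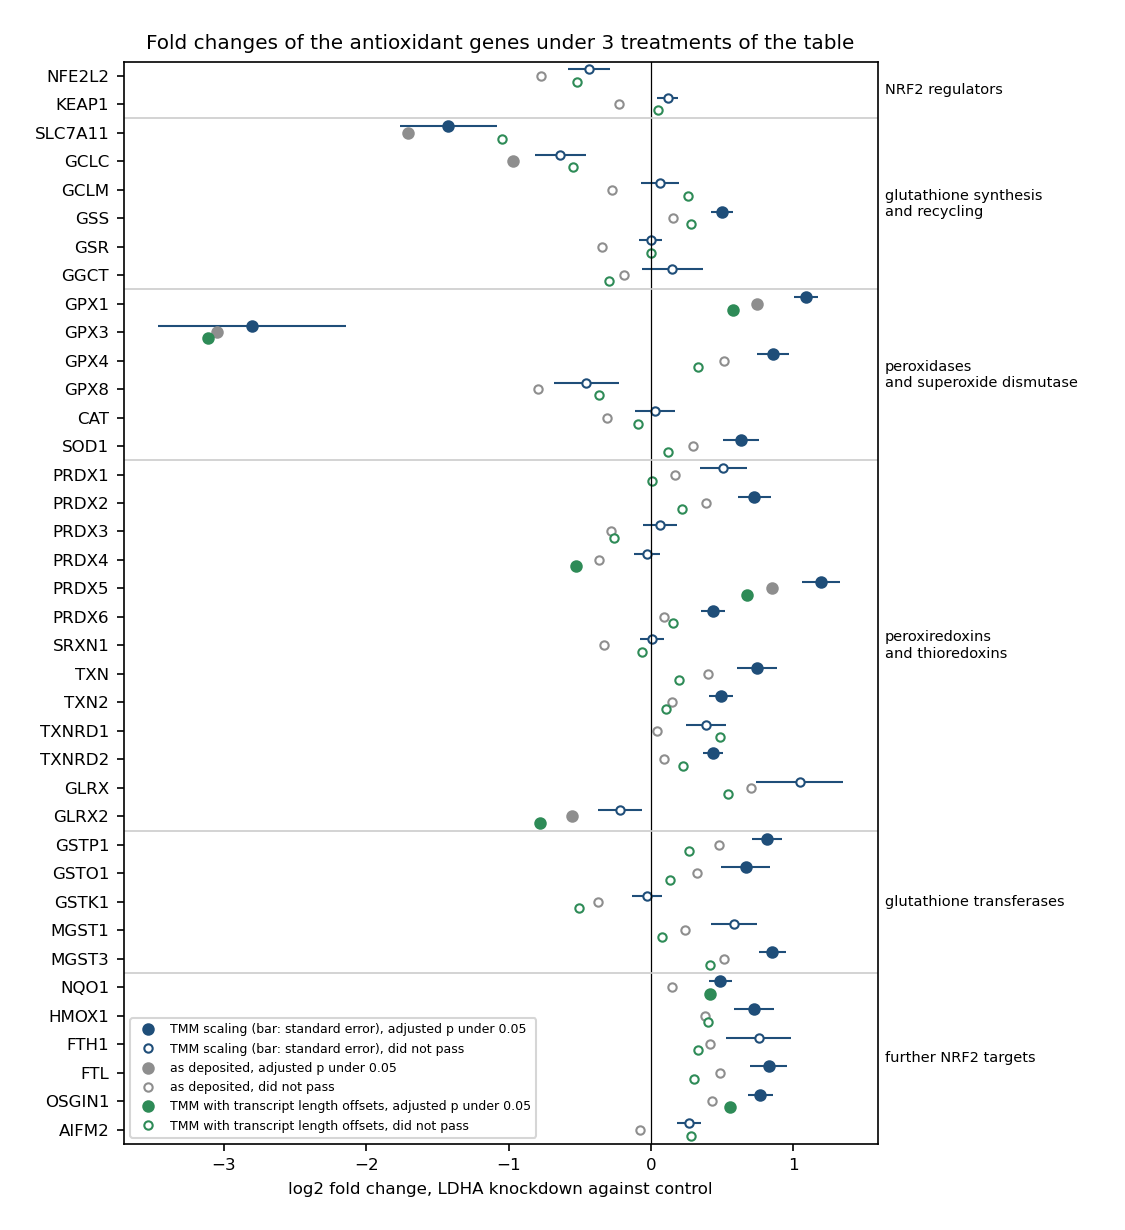
Log2 fold change of LDHA knockdown against control for each tested member after TMM scaling (blue, bars are standard errors), in the deposited values (grey) and after TMM scaling with transcript length offsets (green). Filled symbols have an adjusted p under 0.05, and only GPX1, PRDX5 and GPX3 are filled under all 3 treatments.

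Among the members commonly listed as NRF2 targets, the direction was mixed. Of 14 such genes (SLC7A11, GCLC, GCLM, GSR, TXN, TXNRD1, SRXN1, PRDX1, NQO1, HMOX1, FTH1, FTL, OSGIN1 and AIFM2), 5 rose, 1 fell and 8 did not pass, with a median log2 fold change of 0.44. Over all rows, 18.1% rose and 12.9% fell. NQO1, HMOX1, FTL, OSGIN1 and TXN were higher in the knockdown cells, SLC7A11 was lower, and SRXN1, GSR and GCLM overlapped between the groups. Without scaling 0 of the 14 rose and 2 fell, beside 6.80% and 23.4% of all rows. With an equal total 0 rose and 4 fell, beside 4.57% and 34.0%. The median of the 14 was 0.09 without scaling and -0.08 with an equal total, against -0.33 and -0.50 over all rows. Among members with mitochondrial products, PRDX5, TXN2 and TXNRD2 rose, while PRDX3, GLRX2 and GSTK1 did not pass. The peroxiredoxin PRDX4 and the peroxidase GPX8, both of the endoplasmic reticulum, did not pass.

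Ratios between partner genes within 1 library do not depend on library scaling, but they can depend on transcript length and GC content. The ratio of PRDX5 to PRDX3 was 2.90 and 3.12 in the controls and 6.52 and 6.68 in the knockdown libraries. GSS over GCLC, the ratio of the later to the rate-limiting enzyme of glutathione synthesis, was 33.5 and 41.2 in the controls and 86.3 and 80.2 in the knockdown libraries. GCLC over GCLM was 0.400 and 0.313 in the controls and 0.196 and 0.232 in the knockdown libraries. In each of these ratios the groups were apart.

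GLRX over GLRX2 was 1.003 and 0.999 in the controls and 2.03 and 2.87 in the knockdown libraries. NQO1 over SRXN1, both NRF2 targets, was 14.3 and 13.7 in the controls and 18.8 and 20.3 in the knockdown libraries. TXN over TXNRD1 was 5.15 and 5.18 in the controls and 6.65 and 6.60 in the knockdown libraries. SOD1 over SOD2, the mitochondrial manganese superoxide dismutase, was 4.74 and 5.04 in the controls and 8.25 and 9.03 in the knockdown libraries. The partners differ in transcript length, and in the last pairs the order of the fold changes turned with length offsets, to 0.19 for TXN and 0.49 for TXNRD1, and to 0.12 for SOD1 and 0.21 for SOD2. For PRDX5 over PRDX3, GSS over GCLC, GCLC over GCLM, GLRX over GLRX2 and NQO1 over SRXN1 the order stayed with length and with GC content offsets.

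Other pairs did not separate. FTL over FTH1 was 5.01 and 4.98 in the controls, and the knockdown libraries lay on either side of them, at 6.90 and 3.99. PRDX2 over PRDX1 was 0.457 and 0.458 in the controls and 0.683 and 0.415 in the knockdown libraries. For these pairs, and for HMOX1 over NQO1 and TXN2 over TXNRD2, the groups overlapped.

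**Figure D3:**
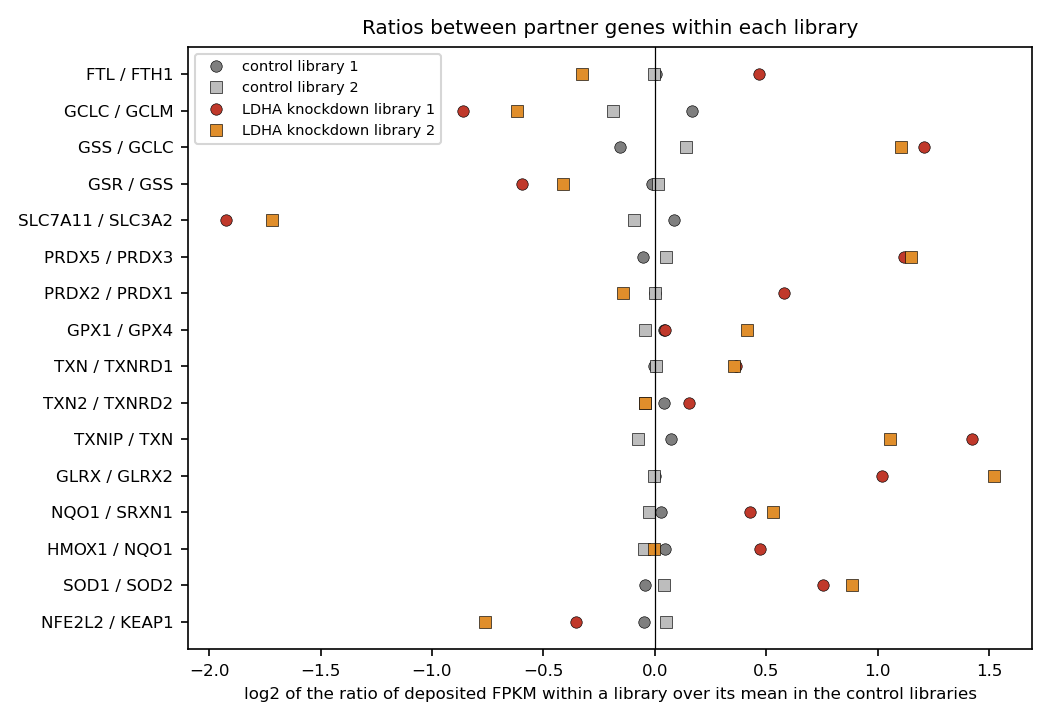
Ratios of the deposited FPKM of partner genes within each library, as log2 over the mean of the control libraries. Circles are first and squares second libraries, in grey for control and in red or orange for LDHA knockdown. PRDX5 / PRDX3, GSS / GCLC, GLRX / GLRX2 and SOD1 / SOD2 lie to the right in both knockdown libraries, and FTL / FTH1 lies on both sides of the controls.

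The knockdown libraries differed from each other more than the controls did. Over the members, the median absolute log2 difference was 0.0779 within the control pair and 0.262 within the knockdown pair, beside 0.125 and 0.217 over all rows. Of the 38 members, 15 were higher in knockdown library 1 and 23 in knockdown library 2. GLRX and FTH1 favoured library 2, by 0.87 and 0.62 on the log2 scale, whereas GPX8 and MGST1 favoured library 1, by 0.60 and 0.44. The 39 genes together took 2.37% and 2.39% of the FPKM total in the controls and 3.14% and 2.60% in the knockdown libraries. Ferritin (FTL and FTH1) accounted for 1.53% of the total in each control and for 2.08% and 1.70% in the knockdown libraries.

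Fold changes of all genes followed transcript length and GC content, and the members are short. Spearman's rho between log2 fold change and GC content was 0.395 across the tested genes with a GC content and 0.42 across the members. After length offsets, rho with GC content over those genes was 0.32. Spearman's rho between log2 fold change and transcript length was -0.41 across the 11919 tested genes with a length and -0.60 across the 38 members, given as a description since genes are not independent. The median transcript length was 1444.5 bases for the members and 3120 bases for all tested genes. Members that rose had a median of 925 bases and those that did not pass 2291 bases. The 2 that fell differ widely in length, with GPX3 at 1603 and SLC7A11 at 9645 bases (median 5624).

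Of the 14 members under 1000 bases, 9 rose and none fell, where 37.9% of all genes of that length rose and only 3.47% fell. Their median log2 fold change was 0.74, against 0.57 for all genes of that length. From 1000 to under 2000 bases, 7 of 12 members rose, and 32.5% of all genes did, with medians of 0.46 and 0.30. At 2000 bases or more, 1 of 12 members (NQO1) rose, and 12.4% of all genes did, with medians of 0.02 and -0.16. GLRX2 and PRDX4 are short genes whose values did not follow the trend, and TXNRD1 and GCLM are long genes that lay above it. When offsets removed the length trend in each library, GPX1, NQO1, OSGIN1 and PRDX5 rose, GLRX2, GPX3 and PRDX4 fell, and the median of the members was 0.14 against -0.04 over all genes, of which 15.5% rose and 13.0% fell. Whether the trends with length and GC content arose in the cells or in the libraries was not tested.

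**Figure D4:**
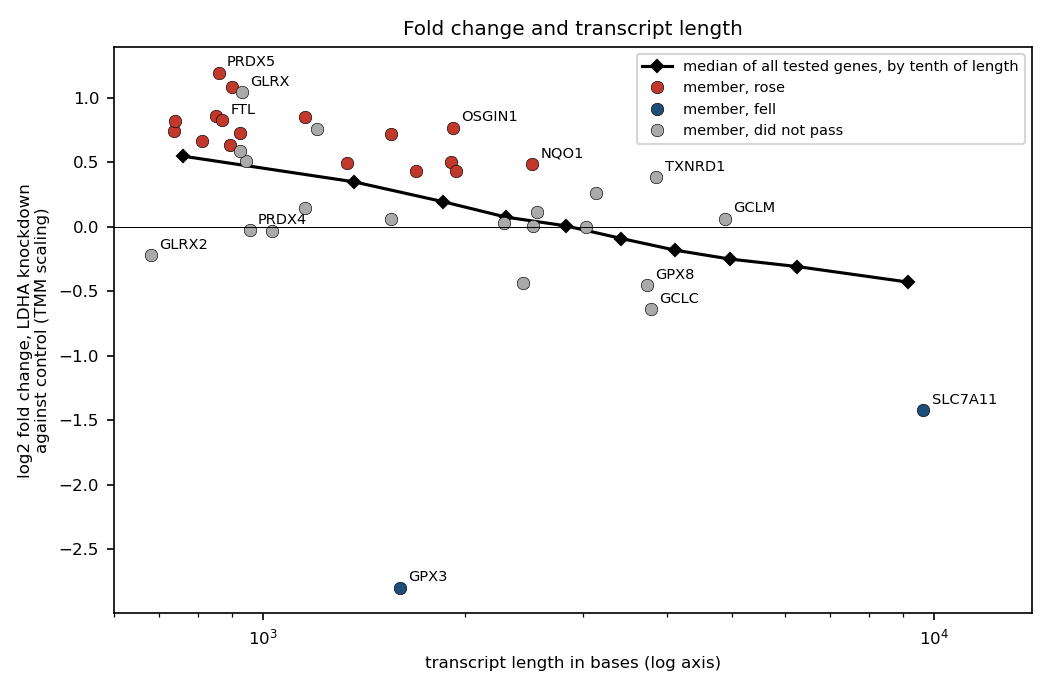
Log2 fold change after TMM scaling against transcript length (log axis, in bases) for the 38 tested members, coloured by their test result, with the median of all tested genes in 10 groups of rising length as a black line. The line runs from 0.55 in the shortest group to -0.43 in the longest, and most members that rose lie above it at the short end.

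Around the members, 88 other genes of these pathways were read from lists, of which 68 were tested. Of these, 20 rose, 7 fell and 41 did not pass, beside 18.1% and 12.9% of all rows that rose and fell, with a median log2 fold change of 0.15. Without scaling 6 of the 68 rose and 13 fell, beside 6.80% and 23.4% of all rows. With an equal total 2 rose and 22 fell, beside 4.57% and 34.0%, and the median was -0.36. After TMM scaling, 11 of the 28 other genes of the NRF2 pathway tested rose and 1 fell. BLVRB, a biliverdin reductase that acts after haem oxygenase, rose from 228 and 253 to 507 and 545 TMM-scaled FPKM (log2 fold change 1.13, limma adjusted p = 0.0077). TKT, the transketolase of the pentose phosphate pathway, which supplies NADPH, rose from 597 and 598 to 1302 and 1158 (log2 fold change 1.04, limma adjusted p = 0.0078). AKR1C3, an aldo-keto reductase, and EPHX1, the microsomal epoxide hydrolase, rose by 0.92 and 0.87 on the log2 scale. CBR1, a carbonyl reductase, fell, with a log2 fold change of -0.55.

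Of 15 other glutathione and cysteine genes tested, 4 rose and 3 fell, beside 18.1% and 12.9% of all rows. CHAC1, which breaks down cytosolic glutathione and is induced by the amino acid and unfolded protein responses, had the largest fall of any gene in these lists. It stood at 35.2 and 34.4 TMM-scaled FPKM in the controls and at 5.37 and 3.39 in the knockdown libraries, with a log2 fold change of -3.00 (SE 0.24, limma adjusted p = 0.0077). Among the others, OPLAH, the oxoprolinase of glutathione recycling, rose from 16.0 and 16.1 to 36.8 and 28.3 TMM-scaled FPKM. ESD and HAGH, which release glutathione from its conjugates with formate and lactate, rose by 0.83 and 0.81 on the log2 scale. GGT7, of the gamma-glutamyltransferase family, rose by 0.62 on that scale. CNDP2, a dipeptidase that splits cysteinylglycine, fell (-0.62), as did GLO1, the glyoxalase before HAGH (-0.27). The call of GLO1 ended with GC content offsets (-0.04, limma adjusted p = 0.67) and with the replicate block (limma adjusted p = 0.098), and OPLAH and GGT7 did not pass with GC content offsets either.

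Of 25 other peroxidases, thioredoxins and transferases tested, 5 rose and 3 fell, close to the shares over all rows. TXNIP, the thioredoxin-interacting protein, which binds thioredoxin and responds to glucose metabolites, rose from 21.6 and 21.0 to 84.9 and 83.6 TMM-scaled FPKM. The log2 fold change of TXNIP was 1.98 (SE 0.07, limma adjusted p = 0.0076), and its ratio to TXN went from 0.0810 and 0.0732 in the controls to 0.207 and 0.160 in the knockdown libraries. CCS, the copper chaperone of SOD1, rose by 0.82 on the log2 scale, and the transferases GSTZ1 and GSTM4 by 0.80 and 0.78. GDAP1, of the transferase superfamily, fell from 1.96 and 2.34 to 0.984 and 1.05 TMM-scaled FPKM, and the protein disulfide isomerase TXNDC5 and the sestrin SESN2 fell with log2 fold changes of -0.67 and -0.47. With GC content offsets CCS and GDAP1 did not pass.

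GPX1, GPX3, GPX4, TXNRD1 and TXNRD2 belong to the selenoproteins, which carry selenocysteine in place of a cysteine. Of 18 selenoprotein genes tested by the annotation, 8 rose and 2 fell, beside 18.1% and 12.9% of all rows. Of the 13 that are not members 5 rose and 1 fell, with a median log2 fold change of 0.26. Without scaling 4 of the 18 rose and 2 fell, beside 6.80% and 23.4% of all rows. With an equal total 2 of the 18 rose and 3 fell, beside 4.57% and 34.0%, and the 13 had a median of -0.26. SELENOO rose from 18.7 and 20.6 to 50.2 and 44.1 TMM-scaled FPKM (log2 fold change 1.26, limma adjusted p = 0.0078), and SELENOH and SELENOM rose by 1.09 and 0.91 on the log2 scale. SEPHS2, which makes the selenium donor for selenocysteine, fell from 11.9 and 13.3 to 5.89 and 6.96, with a log2 fold change of -0.96 (SE 0.14, limma adjusted p = 0.015). SEPHS2 fell also without scaling and with length offsets, and SELENOO rose under both. SELENOH passed under neither (limma adjusted p = 0.054 and 0.0996). SELENOM passed without scaling but not with length offsets, at 0.35 (limma adjusted p = 0.12).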

How the data were processed

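The table covers 4 RNA-seq libraries, 2 of control and 2 of LDHA knockdown B-CPAP cells. According to the methods, reads were trimmed with Trim Galore (v0.5.0), aligned to hg19 with STAR (v2.7.0f), counted with HTSeq (v0.11.2) on GENCODE v19 and TMM-normalized, whereas the submitters' processing notes name HISAT2 and hg38. The authors deposited FPKM, rounded to 2 decimals, in a table labelled as counts. The sources used here name no tool for the length scaling. FPKM cannot enter a count test.

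Rows without a gene name (224 rows, 0.361% to 3.53% of a library's FPKM) and 27 date names were left out. FPKM of rows with at least 0.5 in at least 2 libraries were scaled by an unweighted trimmed mean of M values (30% of M and 5% of A trimmed) and tested as log2(FPKM + 0.1) with limma (version 3.58.1, R 4.3.3), a variance trend and Benjamini-Hochberg adjustment over 13291 rows at 0.05, with 2 residual degrees of freedom. An exact permutation test of 2 against 2 cannot go below p = 0.333, so none was run. Depth was estimated from steps in low values, as the depth at which most lay within 0.15 of a whole fragment (82.2% to 84.6%). The 30% due by chance holds for a depth fixed beforehand, so it does not test the depth chosen. A depth and 2 times that depth give the same steps. The lower was taken where both served nearly as well, so fragment numbers may be too low. Intervals are not printed because fragment counts are estimates. Lengths, GC content and exon overlaps came from GENCODE v44 on GRCh37 by symbol, and offsets removed a spline with 5 degrees of freedom. The table holds no coordinates, and those printed are RefSeq's for promoters.

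The named genes are LDHA, all 39 members and, per further list, up to 4 genes that rose and up to 4 that fell with the largest change. SLC3A2 and SOD2 were added as partners in ratios. The members and lists were chosen with earlier results of these data known. Other scalings, pseudocounts, filters, length and GC offsets, a fit without the trend, a replicate block and leaving out each library were tried as alternatives.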

Additional observations from a re-analysis of the deposited data

How the results depend on the processing

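The counts of genes that passed depended on scaling and on the control pair. Over all rows, 2410 rose and 1709 fell. Without scaling these were 904 and 3114 (6.80% and 23.4%), and with an equal total per library 608 and 4518 (4.57% and 34.0%). Without the filter on low values 1648 rose and 998 fell, and with at least 1 FPKM in 2 libraries 2440 and 1809, each over another number of rows. Without the variance trend 1736 rose and 1529 fell. With length offsets 1847 rose and 1548 fell, which is 15.5% and 13.0% of the 11919 genes with a length. Leaving out 1 library gave 0 to 2729 higher and 0 to 1788 lower. Of the 38 members tested, 17 rose and 2 fell, beside 18.1% and 12.9% of all rows. Without scaling 2 rose and 4 fell, with an equal total 2 and 9, without the filter 11 and 0, with at least 1 FPKM in 2 libraries 17 and 1, with length offsets 4 and 3, without the variance trend 9 and 2, and leaving out 1 library 0 to 22 and 0 to 3. The counts stayed within 1.5 times under both other pseudocounts, upper quartile scaling and GC content offsets, though with GC content offsets only 10 of the 15 members that rose were among the 17. Members that rose after TMM scaling took the opposite sign with an equal total per library in GSS (-0.0209), PRDX6 (-0.0867), TXN2 (-0.0298), TXNRD2 (-0.0846) and NQO1 (-0.0339), and with GC content offsets in TXNRD2 (-0.0916). The cause was not tested. Leaving out a control library leaves 1 control, so the spread within groups then comes from the knockdown pair alone. The part of this in the loss of calls was not tested.

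The labels give both groups the numbers 1 and 2 but do not say that they mark a shared culture or day, and the deviations of control and knockdown library 1 correlated at 0.118. With the replicate number as a block, 2209 genes rose and 1233 fell, and 18 members rose and 1 fell (GLRX was gained and SLC7A11 lost, limma adjusted p = 0.075). The 2 libraries per group limit the precision, as does the low fragment number of GPX3 and SLC7A11.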
